A study of Homo sapiens with 9 samples.

Results

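Exonic peaks in long noncoding RNAs (lncRNAs) were taken from antibody-barcode eCLIP (ABC), in which antibodies that carry DNA barcodes pull down RNA-binding proteins (RBPs) crosslinked to RNA, and the barcode joined to each RNA fragment names the RBP. A peak, a stretch where the reads of 1 library pile up, was counted when its centre lay in an exon of a gene that GENCODE (GRCh38) types as lncRNA, on the same strand, and in no exon of a coding gene on that strand. The rule found 50680 of 2478204 peaks over 54 libraries (2.05%), beside 1370415 peaks (55.3%) centred in exons of coding genes. They lay in 2593 of 18866 annotated lncRNA genes, of which 1378 carry only an identifier as a name. Of the 50680 peaks, 872 (1.72%) lay in exons of more than 1 lncRNA gene and were given to the gene with a symbol.

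The 10 RBPs (DDX3, EIF3G, FAM120A, IGF2BP2, LIN28B, PRPF8, PUM2, RBFOX2, SF3B4 and ZC3H11A) were pulled down together from 1 tube per replicate, a 10plex, in 3 replicates of K562, a chronic myeloid leukaemia line, and 2 of HEK293T, an embryonic kidney line. All cells were ultraviolet-crosslinked and carried no other treatment or allele in the labels. Singleplex libraries, with 1 antibody in the tube, covered RBFOX2 in HEK293T and SLBP in K562, with 2 replicates each. Of the 50680 peaks, 18325 came from the 30 K562 10plex libraries, 25239 from the 20 HEK293T 10plex libraries, 6744 from singleplex RBFOX2 and 372 from singleplex SLBP.

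The labels of the HEK293T 10plex samples name K562 in 1 field and HEK293T in the title, so the pools were set against genes that mark each line. The K562 pools held peaks in 8 of 8 K562 markers (globins and blood transcription factors) and in 1 of 4 HEK293T markers. The HEK293T pools held peaks in 2 of 8 and in 3 to 4 of 4, and singleplex RBFOX2 in 0 of 8 and 4 of 4. Singleplex SLBP replicate 1 held peaks in 4 of 8 K562 markers and replicate 2 in 0 of 8, with 19484 reads in peaks against 84650. The reads in peaks ran from 13351 to 2189152 in the K562 10plex libraries and from 16675 to 2189496 in the HEK293T 10plex libraries. The titles of both HEK293T 10plex samples say rep1, with originally rep1 and originally rep2 in brackets, and they were taken as replicates 1 and 2. The 10 RBPs of a replicate shared a tube, and nothing in the labels says that the replicates were separate cultures, so p-values measure the spread between these libraries.

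lncRNAs are transcripts with no long open reading frame that are spliced and processed much as mRNAs are. Some stay in the nucleus, such as MALAT1 and NEAT1, which mark speckles and paraspeckles, and others, such as NORAD, a decoy for Pumilio proteins, act in the cytoplasm. Many are hosts: they carry snoRNAs or microRNAs in their introns or exons, so that reads on a host can stem from the small RNA inside it. Among the RBPs, RBFOX2 is a splicing regulator that reads GCAUG, PUM2 represses mRNAs through the Pumilio element, LIN28B binds the precursors of let-7 microRNAs, and PRPF8 and SF3B4 are core parts of the spliceosome at the 5′ and 3′ splice site.

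Peaks were called enriched when the reads of an RBP in the peak, per its total, were more than 8-fold over those of the other 9 RBPs of the same tube (the complement control, CC) with P below 0.001. The sequences below lie under regions that were enriched in every replicate of a 10plex, printed 5′ to 3′ on the RNA's strand from the GRCh38 genome with 20 bases on each side of the peak, or of its 200-base stretch richest in the motif. The first pair lay under the strongest RBFOX2 regions of K562, and capitals mark GCATG, which stands 6 times in the first and 5 times in the second, a lncRNA inside the body of a coding gene on the same strand, whose unspliced RNA cannot be told apart from it.
MMP25-AS1, chr16:3054050-3054289, minus strand: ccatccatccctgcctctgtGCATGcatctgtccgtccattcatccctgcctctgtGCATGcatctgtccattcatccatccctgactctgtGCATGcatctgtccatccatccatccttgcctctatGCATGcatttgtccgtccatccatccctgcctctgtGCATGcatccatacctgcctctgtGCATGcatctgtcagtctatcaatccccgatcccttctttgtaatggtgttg
ENSG00000274272, chr7:100575355-100575594, minus strand: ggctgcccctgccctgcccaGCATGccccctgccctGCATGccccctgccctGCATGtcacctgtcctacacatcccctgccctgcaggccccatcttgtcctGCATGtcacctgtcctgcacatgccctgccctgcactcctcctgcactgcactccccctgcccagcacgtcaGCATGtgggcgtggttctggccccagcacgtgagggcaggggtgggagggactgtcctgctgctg

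The next pair, from NORAD, shows PUM2 regions of K562 and of HEK293T. Capitals mark TGTANATA, which stands 2 times in each. The HEK293T region shown is the weaker of the 2 that were enriched in both replicates, since the stronger (chr20:36048776-36048840) holds 0 copies.
NORAD, chr20:36048244-36048390, minus strand: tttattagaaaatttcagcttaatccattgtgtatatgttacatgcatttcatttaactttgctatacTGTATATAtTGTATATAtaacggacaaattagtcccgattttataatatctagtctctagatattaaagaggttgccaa
NORAD, chr20:36047511-36047699, minus strand: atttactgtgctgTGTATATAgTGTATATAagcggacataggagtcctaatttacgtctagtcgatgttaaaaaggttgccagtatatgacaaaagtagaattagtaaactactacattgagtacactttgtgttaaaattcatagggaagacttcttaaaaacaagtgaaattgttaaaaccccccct

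LIN28B was enriched on the let-7d precursor inside MIRLET7A1HG, the host of let-7a-1, let-7f-1 and let-7d, and capitals mark GGAG, the motif that LIN28 proteins read in let-7 loops. The strongest LIN28B region of H19 in K562, with its flanks (chr11:1996144-1996211, not printed), holds 0 copies of GGAG.
MIRLET7A1HG, chr9:94178812-94178945, plus strand: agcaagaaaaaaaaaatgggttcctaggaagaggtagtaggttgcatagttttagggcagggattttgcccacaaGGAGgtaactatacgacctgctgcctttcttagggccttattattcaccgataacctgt

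Splice sites are shown for PRPF8 in GP6-AS1, where capitals mark the first 6 bases of 2 annotated introns that start close together, and for SF3B4 in MALAT1, where capitals mark the last 2 bases of an annotated intron within this mostly unspliced RNA.
GP6-AS1, chr19:55006259-55006380, plus strand: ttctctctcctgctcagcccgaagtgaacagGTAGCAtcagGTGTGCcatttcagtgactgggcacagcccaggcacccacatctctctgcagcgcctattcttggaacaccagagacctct
MALAT1, chr11:65506320-65506409, plus strand: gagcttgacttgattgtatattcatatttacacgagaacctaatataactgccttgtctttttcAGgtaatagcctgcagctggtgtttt

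The 5′ end of NORAD is shown for DDX3, an RNA helicase of translation initiation. No motif was searched in it, and 72.1% of its bases were G or C.
NORAD, chr20:36050741-36050941, minus strand: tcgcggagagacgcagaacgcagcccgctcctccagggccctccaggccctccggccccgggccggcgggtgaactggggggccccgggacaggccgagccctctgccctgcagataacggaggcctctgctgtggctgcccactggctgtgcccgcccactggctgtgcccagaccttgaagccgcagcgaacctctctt

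The last pair shows short regions of high fold, for LIN28B in EN2-DT and for ZC3H11A in LINC01304, with peaks of 26 and 27 bases. Capitals mark the 10 bases closest to the first 10 bases of the 3′ adapter of the libraries, of which 8 of 10 positions matched in both. Of the longer K562 regions, LINC02977 for FAM120A (157 bases) and ENSG00000291207 for PRPF8 (65 bases) matched at 8 of 10 positions as well. A longer region has more places for a match. The 24-base region of PRNCR1 for EIF3G matched at 7 and the 28-base region of H19 for LIN28B at 5. The other K562 regions that were compared matched at 4 to 7. The part of this likeness in these peaks was not tested.
EN2-DT, chr7:155451146-155451211, minus strand: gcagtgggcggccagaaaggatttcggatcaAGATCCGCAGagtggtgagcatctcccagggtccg
LINC01304, chr2:3960000-3960066, minus strand: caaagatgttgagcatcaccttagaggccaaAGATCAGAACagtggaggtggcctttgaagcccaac

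lncRNA exons took a different part of each RBP's peaks, and PUM2 stood apart. In K562, 13.5%, 11.8% and 11.6% of all PUM2 peaks lay in lncRNA exons, 12.3% ± 1.07 (SD, n = 3), against a mean of 3.16% over the other 9 RBPs. The exact permutation test of the RBP labels within each replicate (1000 choices, two-sided) gave p = 0.001, the smallest it can give, and an adjusted p of 0.01 over the 10 RBPs. In HEK293T, PUM2 was again highest, with 9.3% and 6.61%. EIF3G followed in K562 with 8.57%, 5.91% and 5.46%, then ZC3H11A with 4.53%, 3.48% and 5.42%, and neither passed the test (adjusted p = 0.34 and 0.895, exact permutation). PRPF8 was lowest and closest among replicates, at 1.66%, 1.69% and 1.67%. The remaining 6 RBPs had means between 2.43% and 3.14%.

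The high share of PUM2 went with shallow libraries and small RNAs. The 3 K562 libraries of PUM2 held 938 to 1535 peaks, the fewest of the pool, and 44.2% to 55.9% of their lncRNA peaks lay on a small RNA gene within the lncRNA. Without those peaks the excess of PUM2 over the other RBPs was 4.07 percentage points in place of 9.15, still at p = 0.001 (exact permutation). By reads in place of peaks, PUM2 had p = 0.055 and SF3B4, with 26.5% to 31.8% of its reads in lncRNA exons, p = 0.001 (exact permutation). The part of depth was not tested.

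**Figure D1:**
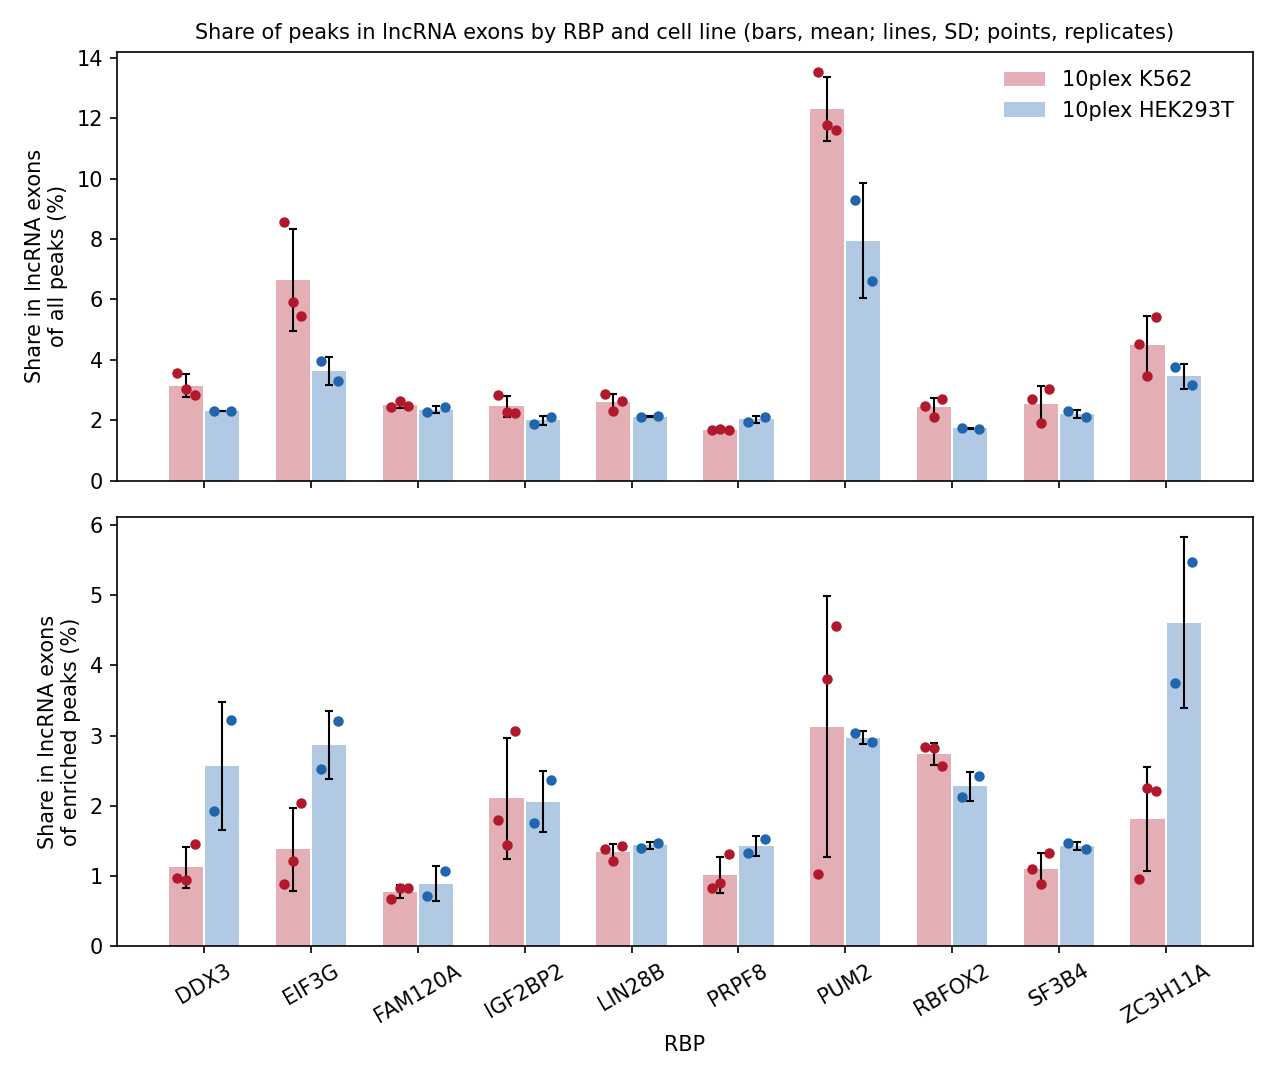
Share of peaks in lncRNA exons (y axis, %) by RBP (x axis) for all peaks (top) and for peaks enriched over the complement control (bottom), with bars for the mean, lines for the SD and points for the 3 K562 (red) and 2 HEK293T (blue) replicates. PUM2 stands at 11.6% to 13.5% of all peaks in K562, and ZC3H11A at 3.75% and 5.47% of enriched peaks in HEK293T.

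The enriched share was lower in lncRNA exons than over all peaks in both lines. Of the 14665 lncRNA exonic peaks with a CC value in K562, 1603 (10.9%) were enriched, beside 18.8% of all peaks tested. In HEK293T the count was 1622 of 19257 (8.42%), beside 10.3%. By RBP, the enriched share was above that of all peaks only for RBFOX2 in K562, and for DDX3, IGF2BP2, RBFOX2 and ZC3H11A in HEK293T. These shares are descriptions, with no test.

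The share of enriched peaks that fell in lncRNA exons did not separate the RBPs after correction. In K562 it was 3.13% ± 1.86 for PUM2 (SD, n = 3), 2.74% ± 0.155 for RBFOX2 and lowest for FAM120A, at 0.776% ± 0.0871. PUM2 (p = 0.008, adjusted 0.08) and RBFOX2 (p = 0.034, adjusted 0.17) had an unadjusted exact permutation p under 0.05, and 0 of 10 RBPs passed after adjustment. The PUM2 replicates were wide apart, at 1.02%, 3.8% and 4.56%. The first of these is 2 of 196 enriched peaks, with a 95% Wilson interval of 0.28% to 3.64%, which covers counting error only. In HEK293T, ZC3H11A, a nuclear protein of mRNA export, was highest with 3.75% and 5.47% (p = 0.01, the smallest that 2 replicates allow, adjusted 0.1, exact permutation), and FAM120A was again lowest with 0.712% and 1.06%.

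Between the cell lines, the share of all peaks in lncRNA exons was higher in K562 for 7 RBPs whose replicates did not overlap, among them EIF3G (6.65% ± 1.68 against 3.63% ± 0.467) and DDX3 (3.14% ± 0.386 against 2.3% ± 0.00966). PRPF8 went the other way without overlap, with 1.67% ± 0.0162 in K562 and 2.03% ± 0.123 in HEK293T, and SF3B4 and ZC3H11A overlapped. When lncRNA peaks on small RNA genes were not counted, DDX3 overlapped, with 2%, 1.84% and 1.79% in K562 against 1.87% and 1.92%. FAM120A, IGF2BP2 and PUM2 overlapped too. EIF3G (4.22%, 3.33% and 3% against 2.87% and 2.43%), LIN28B and RBFOX2 stayed higher in K562 without overlap. The K562 libraries were also shallower, with a median of 16975.5 peaks against 37510, and the part of depth was not tested. With 3 against 2 pools the exact permutation test cannot go below 0.1, and every adjusted p was 0.25 or more. Among enriched peaks the direction turned for DDX3, EIF3G, FAM120A, LIN28B, SF3B4 and ZC3H11A, the last from 1.03 percentage points higher in K562 to a difference of −2.80, with no overlap of the replicates. By reads it turned for PRPF8.

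A few genes held most of the reads. On average over the 50 10plex libraries, the first 10 genes held 66.6% of the reads of lncRNA exonic peaks, of which 1 is counted and not named. GAS5, a host of snoRNAs whose RNA rises in growth arrest, led with 15.9% ± 3.64 in K562 (SD over 30 libraries) and 7.63% ± 3.17 in HEK293T. SNHG1, a snoRNA host as well, held 12% ± 3.32 and 5.26% ± 2.02. MALAT1 held 11% ± 6.35 and 4.47% ± 1.77, with its highest share, 31.4%, in the FAM120A library of K562 replicate 2. The libraries of 1 line differ in their RBP, so these SDs hold the differences between RBPs.

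In other leading genes the reads lay on a small RNA gene inside them. All reads of ENSG00000270022 (chr22:42615244-42615907) lay on RNU12, the U12 snRNA of the minor spliceosome, and those of ENSG00000285646, ENSG00000270103, ENSG00000259001 and ENSG00000270066 on RNU5E-1, RNU11, RPPH1 and SCARNA2. SNHG29 had 92.5% of its reads on small RNA genes and SNHG1 72%, while GAS5 had 0% and MALAT1 1.07%. In all, 24.5% of lncRNA exonic peaks and 52.5% of their reads in K562 lay on a small RNA gene, and 11.5% and 48.6% in HEK293T. Among enriched peaks the part was 5.37% (86 of 1603) in K562 and 3.82% (62 of 1622) in HEK293T. The reads do not tell the host from the small RNA.

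**Figure D2:**
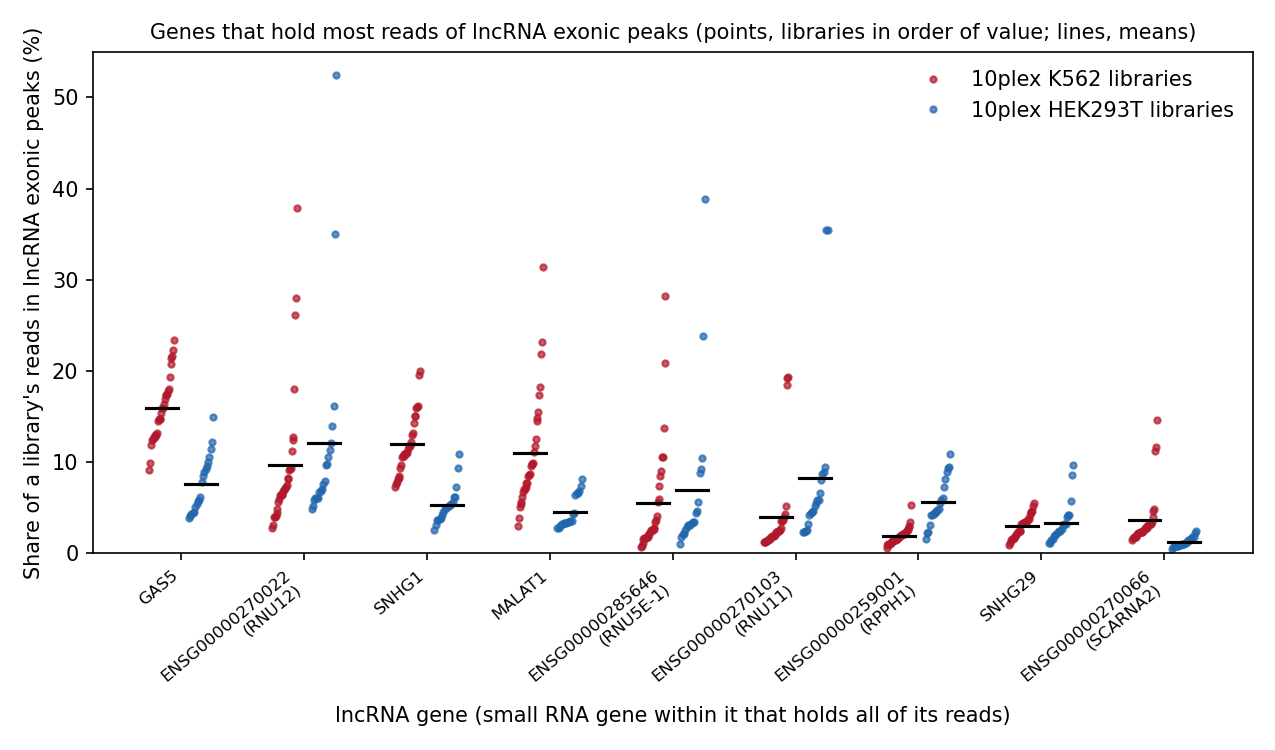
Share of a library's reads in lncRNA exonic peaks (y axis, %) held by 9 of the 10 leading genes (x axis), with points for the 30 K562 (red) and 20 HEK293T (blue) 10plex libraries in order of value and lines for their means. GAS5 averages 15.9% in K562 and 7.63% in HEK293T, and the U12 snRNA in ENSG00000270022 reaches 52.4% in an SF3B4 library of HEK293T.

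Reads and enrichment fell on different classes. Hosts of snoRNAs (GAS5, ZFAS1, EPB41L4A-AS1 and the SNHG genes, 31 annotated lncRNAs) held 47.7% of the reads of lncRNA exonic peaks in K562 and 26.5% in HEK293T, and 77 of their 3622 peaks tested (2.13%) in K562 and 41 of 2503 (1.64%) in HEK293T were enriched for any RBP. Nuclear lncRNAs (MALAT1, NEAT1, KCNQ1OT1 and FIRRE among 6) had 59 of 1828 (3.23%) enriched in K562 and 30 of 1420 (2.11%) in HEK293T. Cytoplasmic lncRNAs (NORAD, OIP5-AS1, DANCR, CYTOR and HULC) had 71 of 558 (12.7%) and 27 of 369 (7.32%), of which NORAD held 42 and 17 and OIP5-AS1 22 and 9. Hosts of microRNAs (MIR17HG, MIRLET7BHG and 7 more) had 43 of 235 (18.3%) and 29 of 224 (12.9%), of which MIR17HG alone held 38 and 17. Imprinted or developmental lncRNAs (H19, HOTAIR, FTX, JPX and 5 more) had 37 of 257 (14.4%) and 18 of 254 (7.09%), of which H19 held 27 and 6. Over all lncRNA exonic peaks tested the shares were 10.9% and 8.42%, and the classes were not tested against each other.

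Many snoRNA hosts had peaks in nearly every library and few enriched for an RBP. The totals per gene given here count all peaks, with or without a CC value, unlike the class totals above. GAS5 had peaks in all 30 K562 libraries and 6 enriched peaks of 725, all of PRPF8. SNHG1 had 10 of 609, all of PRPF8 too, and SNHG12, SNHG8, SNHG9, SNHG10, SNHG19, SNHG25 and SNHG32 had 0 in K562. TERC, the RNA of telomerase, had peaks in 30 of 30 K562 libraries and 20 of 20 HEK293T libraries, and 0 enriched. MALAT1 had 7 enriched of 1108 peaks in K562, of which 4 were of SF3B4 with at least 1 in every replicate, and NEAT1 27 of 859, of which 20 were of RBFOX2.

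**Figure D3:**
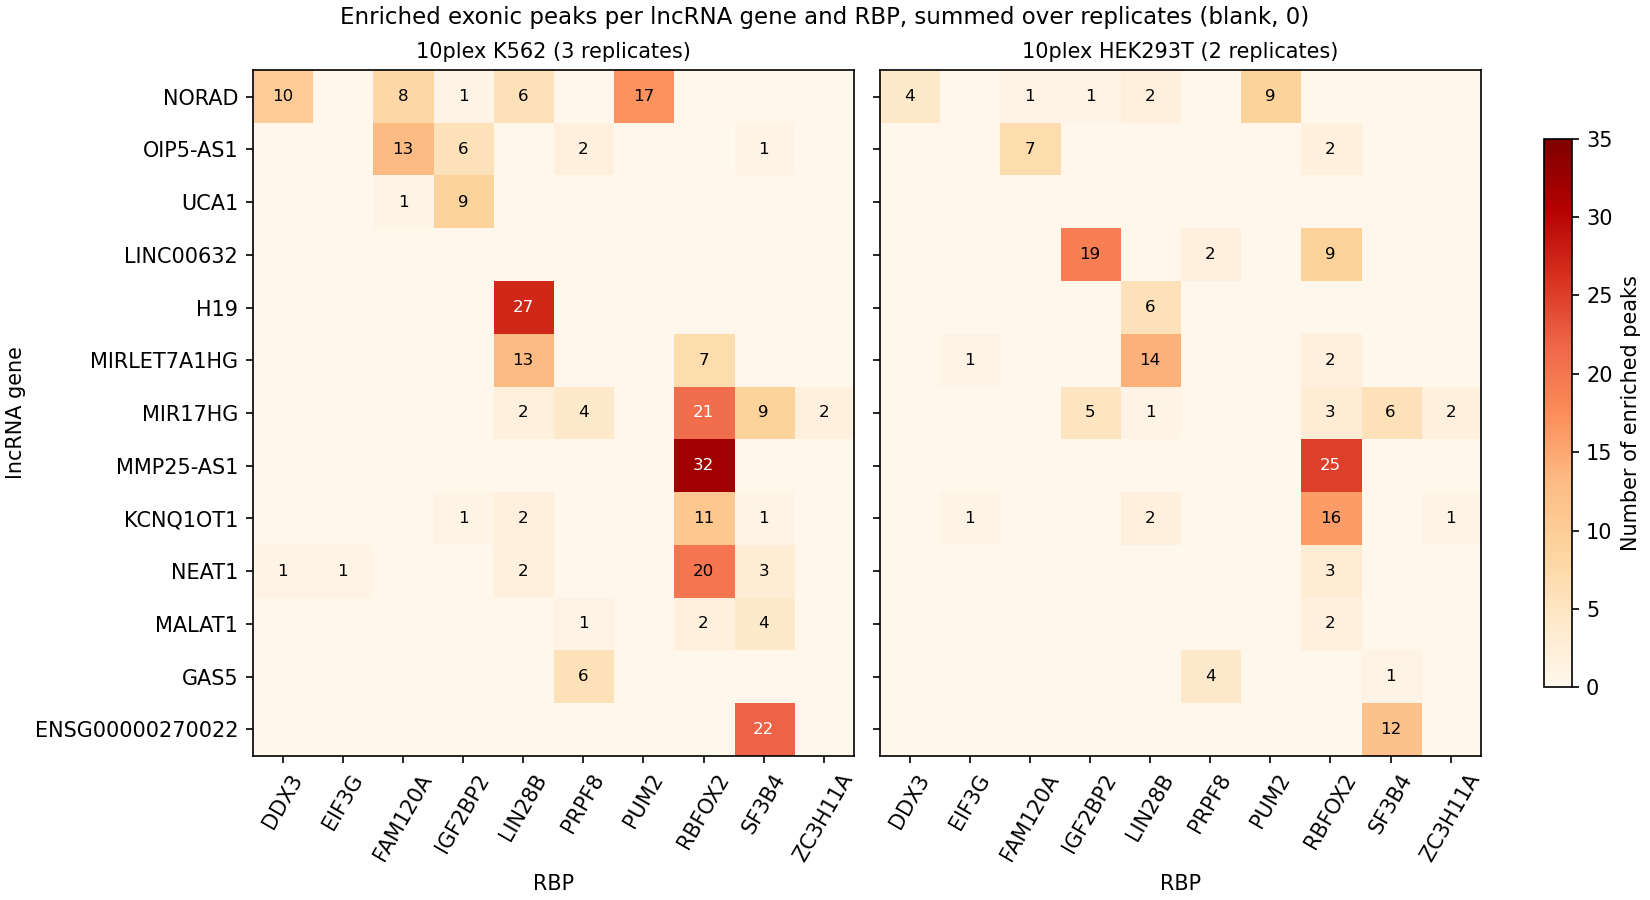
Number of enriched exonic peaks (colour and printed count) for 13 lncRNA genes (rows) and 10 RBPs (columns), summed over 3 K562 replicates (left) and 2 HEK293T replicates (right), with blanks at 0. H19 is enriched for LIN28B alone (27 and 6 peaks) and MMP25-AS1 for RBFOX2 alone (32 and 25), while NORAD is shared by 5 RBPs in each line.

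RBFOX2 was enriched on antisense, nuclear and microRNA host RNAs. Of its 2312 lncRNA exonic peaks tested in K562, 263 (11.4%) were enriched, beside 9.43% of all RBFOX2 peaks, and in HEK293T 262 of 4622 (5.67%), beside 4.48%. MMP25-AS1 (chr16:3037400-3059370), antisense to the protease gene MMP25, led in both lines with 12, 10 and 10 enriched peaks in K562 and 8 and 17 in HEK293T. Its strongest region, printed above, had 91, 663 and 381 RBFOX2 reads in K562 against 4, 41 and 37 reads of all other RBPs together, a log2 fold of 6.32 ± 0.352 (SD, n = 3). No other RBP had an enriched peak on MMP25-AS1 in either line.

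MIR17HG, the host of the miR-17-92 cluster, had 4, 9 and 8 enriched RBFOX2 peaks in K562, and NEAT1 5, 5 and 10. In HEK293T the second gene was KCNQ1OT1, the imprinted antisense RNA of KCNQ1, with 8 and 8, which had 2, 6 and 3 in K562. The second strongest region of K562 lay in ENSG00000274272, with 698, 966 and 214 reads against 71, 94 and 29, a log2 fold of 5.53 ± 0.0863. Of the 14 genes with an enriched RBFOX2 peak in every K562 replicate, 10 also had one in both HEK293T replicates, among them MMP25-AS1, ENSG00000274272, NEAT1, KCNQ1OT1 and FTX.

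The Fox motif stood under these peaks. In K562, 39 of 55, 76 of 122 and 61 of 86 enriched RBFOX2 peaks, extended by 50 nt on both sides, held GCATG on the RNA's strand, 68% ± 4.98 (SD, n = 3), against a mean of 5.95% and a range of 0% to 15% over the libraries of the other 9 RBPs. The exact permutation test gave p = 0.001 and an adjusted p of 0.00133 over the 4 features tested. HEK293T had 95 of 132 and 90 of 130 (70.6% ± 1.94). The call sets each RBP against the other 9 of its tube and so limits the sites that RBPs can share. The enriched sets compared here, and for the other features tested, are therefore not independent of each other. Among all lncRNA exonic peaks of RBFOX2, enriched or not, the share was 24.6% ± 3.02, against 11.1% for those of the other RBPs. On the opposite strand, 40.7% ± 4.69 of the enriched RBFOX2 peaks held GCATG, where GCATGC reads the same on both strands. Without MMP25-AS1 the excess over the other RBPs was 58.2 percentage points in place of 62.1.

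PUM2 was enriched on NORAD above all. Of 394 PUM2 peaks tested in K562, 35 (8.88%) were enriched, beside 30.9% of all PUM2 peaks, and of 310 in HEK293T 25 (8.06%), beside 21.1%. NORAD (chr20:36045618-36051018, minus strand) held 17 of the 35 (48.6%), with 2, 9 and 6 per replicate, and 9 of the 25 (36%) in HEK293T, with 4 and 5. It was the only gene enriched in every K562 replicate. The K562 region printed above had 3, 15 and 18 PUM2 reads against 33, 127 and 85 reads of the other 9 RBPs together, which had far more reads in all, a log2 fold of 3.81 ± 0.487 (SD, n = 3). In HEK293T only GUSBP11, a pseudogene-derived lncRNA that shares sequence with the coding gene GUSB, was enriched beside NORAD in both replicates, with 1 peak in each.

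The Pumilio motif was found in 1 of 2, 8 of 16 and 8 of 17 enriched PUM2 peaks of K562, extended by 50 nt, 49% ± 1.7 (SD, n = 3), against a mean of 1.84% and a range of 0% to 14% in the libraries of the other RBPs (exact permutation p = 0.001, adjusted 0.00133). HEK293T had 1 of 13 and 6 of 12. Among all lncRNA exonic peaks of PUM2 in K562, enriched or not, the share was 6.76% ± 2.45, against 1.755% for those of the other RBPs. On the opposite strand the motif stood in 0% of the enriched PUM2 peaks of both lines. With NORAD left out, the excess over the other RBPs was 26.5 percentage points in place of 47.2, over the 2 replicates that still had a peak. With 1 test for the calls of all replicates, exact at small numbers, it was 29.5 over the same number of replicates, and with peaks near a looser match to the adapter left out 70.9.

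NORAD was shared by several RBPs. It was enriched in every K562 replicate for DDX3, FAM120A, LIN28B and PUM2, the most RBPs of any lncRNA gene, and in every HEK293T replicate for DDX3, LIN28B and PUM2. Along its 5401 nt, the centres of the 10 enriched DDX3 peaks of K562 lay 118 to 336 nt from the 5′ end and those of the 4 in HEK293T 186 to 418 nt. The 17 PUM2 peaks of K562 spread from 942 to 4652 nt, and the 9 of HEK293T from 978 to 3414 nt. FAM120A, which had 8 peaks in K562, returned to 1 place, with centres at 4198, 4199 and 4200 nt in the 3 replicates and 370, 1033 and 95 reads. LIN28B did so too, at 4388, 4390 and 4383 nt, with 14, 45 and 16 reads. Other FAM120A and LIN28B peaks lay beside PUM2 peaks. FAM120A had centres at 1520 and 3381 nt in replicate 1, where PUM2 had 1508 nt in replicates 2 and 3, and 3378 and 3385 nt. LIN28B had 926 nt in replicate 1, where PUM2 had 942 nt. IGF2BP2 had 1 peak in each line, at 5280 and 5352 nt. The FAM120A and PUM2 centres set beside each other come from different replicates, and so from different tubes. Those of LIN28B at 926 nt and PUM2 at 942 nt are both of replicate 1. The distances were not tested.

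**Figure D4:**
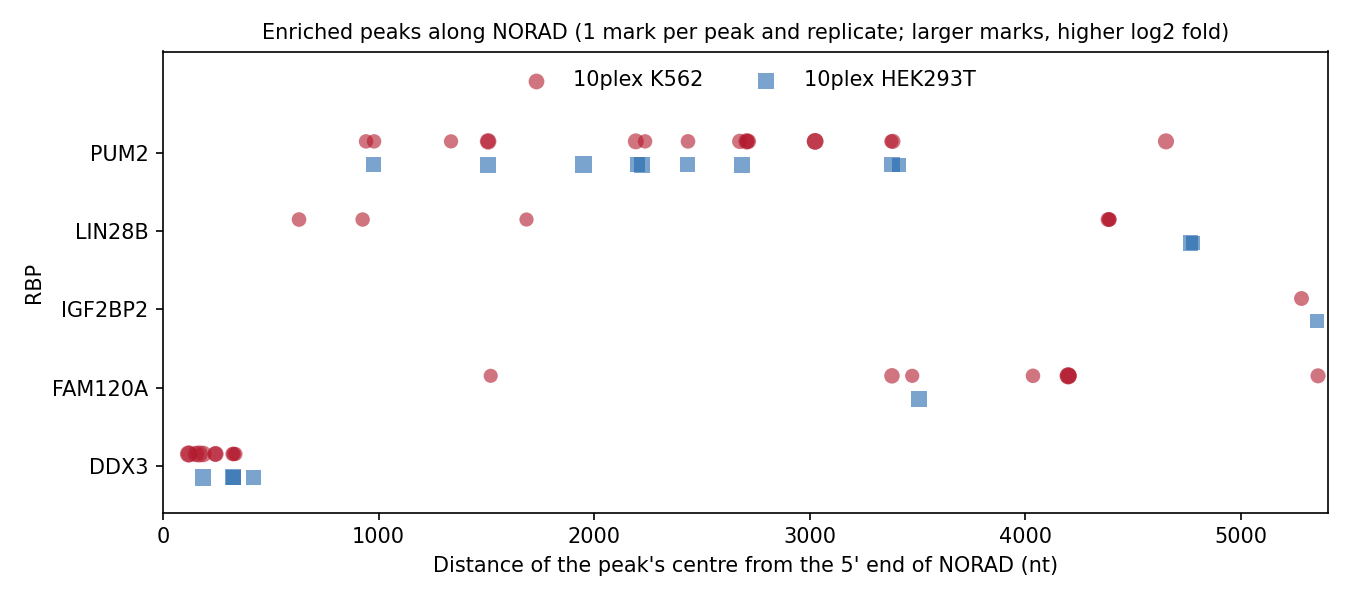
Distance of the centre of each enriched peak from the 5′ end of NORAD (x axis, nt) for 5 RBPs (y axis), with 1 mark per peak and replicate in K562 (red circles) and HEK293T (blue squares), larger at a higher log2 fold over the complement control. DDX3 peaks lie within 418 nt of the 5′ end, while PUM2 peaks run from 942 to 4652 nt.

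LIN28B was enriched on H19 and on the hosts of let-7. Of its 990 peaks tested in K562, 204 (20.6%) were enriched, beside 35.6% of all LIN28B peaks, and in HEK293T 122 of 789 (15.5%), beside 20.7%. H19 (chr11:1995166-2004552), an imprinted fetal RNA, had 9, 9 and 9 enriched LIN28B peaks in K562 and none of another RBP, and it held 13.7%, 18.6% and 13.1% of the reads of LIN28B's lncRNA exonic peaks. Its strongest region (chr11:1996164-1996191) had 270, 787 and 197 LIN28B reads against 57, 140 and 31 of the other RBPs, a log2 fold of 6.57 ± 0.277 (SD, n = 3). In HEK293T, H19 had peaks in the LIN28B libraries alone, 2 and 4 in number, all enriched, with 12 and 36 reads.

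MIRLET7A1HG had 2, 5 and 6 enriched LIN28B peaks in K562 and 8 and 6 in HEK293T, all of them on microRNA genes. The let-7d region printed above had 96, 67 and 211 reads against 16, 6 and 18, a log2 fold of 7.31 ± 0.608, and in HEK293T 67 and 241 against 9 and 40 (7.38 ± 0.0295). MIRLET7BHG, the host of let-7b and let-7a-3, had 3 enriched LIN28B peaks in K562, not in every replicate, and 5 in HEK293T, with a region on MIRLET7B at 55 and 44 reads against 6 and 8. EN2-DT, whose 26-base peak is printed above, had the highest fold of all LIN28B regions, 7.85 ± 1.63, on 4, 19 and 32 reads. The enriched LIN28B peaks, here without extension, held GGAG in 31.9% ± 2.71 of cases in K562. DDX3 was near that share (30% ± 17.1), and the motif was not tested.

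PRPF8 was enriched on the largest number of lncRNA genes in either line. Of 2403 peaks tested in K562, 339 (14.1%) were enriched, beside 20.9% of all PRPF8 peaks, and in HEK293T 340 of 3273 (10.4%), beside 13.2%. They lay in 185 and 229 lncRNA genes, of which 20 and 45 were enriched in every replicate, and no gene held more than 7 and 5. SNHG17 (3, 2 and 2 peaks), SNHG15 (1, 2 and 4) and GAS5 (1, 2 and 3), all snoRNA hosts, led in K562, and PSMA3-AS1 (3 and 2) and CCDC18-AS1 (3 and 2), antisense RNAs, in HEK293T. SNHG17 lay outside the small RNA genes with all 7 peaks, although 90.3% of its 269 peaks of all RBPs lay on one. In GP6-AS1, printed above, the region had 27, 24 and 45 reads against 10, 5 and 11, a log2 fold of 4.37 ± 0.707. The only region above it, in ENSG00000291207, had 13, 7 and 7 reads against 3, 1 and 1 (5.04 ± 0.614).

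The enriched PRPF8 peaks lay at 5′ splice sites of the lncRNAs. In K562, 63 of 81, 102 of 130 and 105 of 128 had their centre within 100 nt of an exon end followed by an intron, 79.4% ± 2.28 (SD, n = 3), against a mean of 16.1% and a range of 0% to 37.1% for the other RBPs (exact permutation p = 0.001, adjusted 0.00133). HEK293T had 133 of 175 and 118 of 165 (73.8% ± 3.17). Among all lncRNA exonic peaks of PRPF8 the share was 52.8% ± 3.32, against 25.5% for the other RBPs. PRPF8 peaks were near 3′ splice sites as well, at 48.1%, 54.6% and 50.8%.

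SF3B4 was enriched on the U12 snRNA and on 3′ splice sites. Of 1288 peaks tested in K562, 179 (13.9%) were enriched, beside 27.7% of all SF3B4 peaks, and in HEK293T 155 of 1180 (13.1%), beside 18.6%. ENSG00000270022, where all peaks lay on RNU12, had 7, 9 and 6 enriched peaks in K562 and 9 and 3 in HEK293T, with none of another RBP. It held 26.2%, 27.9% and 37.9% of the reads of SF3B4's lncRNA exonic peaks in K562 and 52.4% and 35% in HEK293T, beside a mean of 9.69% over all K562 libraries. LINC01203 (3, 5 and 4) and MIR17HG (3, 2 and 4) followed in K562 and MIR17HG (5 and 1) in HEK293T. The highest fold was in MALAT1, at the intron end printed above, with 103, 159 and 61 reads against 12, 23 and 23, a log2 fold of 5.95 ± 0.506.

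Of the enriched SF3B4 peaks of K562, 15 of 38, 32 of 72 and 37 of 69 lay within 100 nt of an exon start preceded by an intron, 45.9% ± 7.18 (SD, n = 3), against a mean of 20.4% and a range of 0% to 54.6% for the other RBPs, the upper end being PRPF8. The exact permutation test gave p = 0.011 (adjusted 0.011). Without replicate 3 the excess was 21.3 percentage points (exact permutation p = 0.07), in place of 25.5. Within 50 nt the share was 43.1% ± 6.22 against 9.82% (p = 0.001, exact permutation). In HEK293T, 48 of 102 and 32 of 53 lay within 100 nt (53.7% ± 9.42). Among all lncRNA exonic peaks of SF3B4 in K562, enriched or not, the share within 100 nt was 35.3% ± 2.15, against 25.3% for the other RBPs.

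**Figure D5:**
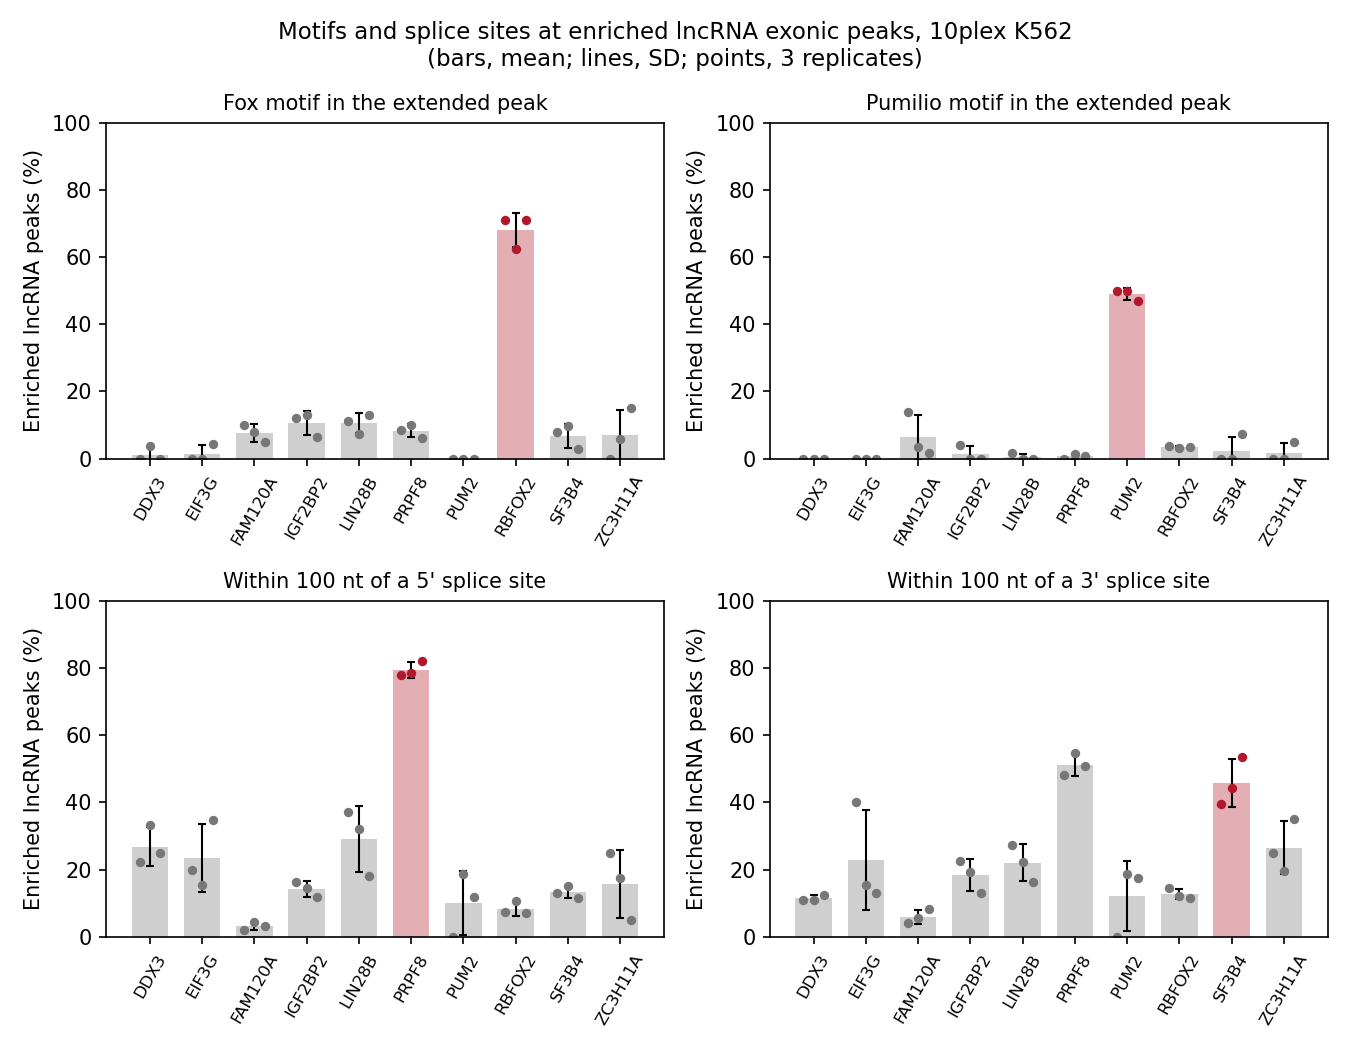
Share of enriched lncRNA exonic peaks of 10plex K562 (y axis, %) by RBP (x axis) that hold the Fox motif or the Pumilio motif or lie within 100 nt of a 5′ or a 3′ splice site, with bars for the mean, lines for the SD and points for the 3 replicates. RBFOX2, PUM2, PRPF8 and SF3B4, in red in their own panel, reach 68%, 49%, 79.4% and 45.9%, and PRPF8 is higher than SF3B4 at 3′ splice sites.

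FAM120A had many lncRNA exonic peaks and the lowest enriched share among them in K562. Of 3301 tested in K562, 199 (6.03%) were enriched, beside 16.9% of all FAM120A peaks, and in HEK293T 234 of 3758 (6.23%), beside 14.6%. LINC02977 (4, 6 and 6), OIP5-AS1 (4, 7 and 2), also known as cyrano, and DLEU2 (3, 5 and 4), the host of miR-15a and miR-16-1, led in K562, and ENSG00000260257 (10 and 3) and NIPBL-DT (3 and 8) in HEK293T. LINC02977 had 57, 66 and 23 reads against 1, 5 and 5 in its strongest region (chr9:112038884-112039040), a log2 fold of 5.11 ± 1.71. Of the 14 genes enriched in every K562 replicate, 8 were also enriched in both HEK293T replicates. The median share of G and C in the enriched FAM120A peaks was 38.1% ± 3.03 in K562 and 35.7% ± 1.77 in HEK293T, and that of PUM2 31.6% ± 4.77 and 35.8% ± 8.34.

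IGF2BP2, which stabilises mRNAs, differed in its leading genes between the lines. Of 1728 peaks tested in K562, 187 (10.8%) were enriched, beside 11.5% of all IGF2BP2 peaks, and in HEK293T 105 of 2260 (4.65%), beside 4.24%, so that both shares were near those of all peaks. UCA1 (2, 3 and 4), LINC01608 (2, 3 and 2) and CCDC144NL-AS1 (1, 2 and 3) led in K562, and 1 of 6 such genes is counted and not named. The region of UCA1 had 11, 15 and 46 reads against 5, 17 and 11 (log2 fold 4.09 ± 0.647), and the highest mean was 4.41 ± 0.481 in ENSG00000290686 on 3, 8 and 12 reads. UCA1 (chr19:15828206-15836328) had no peak in any HEK293T 10plex library. LINC00632 (chrX:140709562-140793215) led in HEK293T with 6 and 13 and had no peak in any K562 10plex library. It held 5.04% and 3.68% of the reads of IGF2BP2's lncRNA exonic peaks, with 281 and 144 reads against 109 and 96 in its strongest region, a log2 fold of 3.93 ± 0.737 (SD, n = 2). The lists hold peaks of 3 reads or more, so a gene with no peak has a bound and not a level of 0.

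DDX3 and EIF3G are factors of translation initiation. Of 983 DDX3 peaks tested in K562, 77 (7.83%) were enriched, beside 20.3% of all DDX3 peaks, and in HEK293T 148 of 1485 (9.97%), beside 8.65%. For EIF3G the counts were 41 of 534 (7.68%), beside 31.7%, and 88 of 653 (13.5%), beside 16.8%. NORAD (4, 3 and 3), FGD5-AS1 (4, 1 and 1) and LINC01003 (1, 2 and 2) led for DDX3 in K562, where the NORAD region printed above had 48, 64 and 83 reads against 32, 70 and 49 (log2 fold 4.53 ± 0.268). ENSG00000291079 had the highest mean, 4.91 ± 2.16, on 9, 6 and 6 reads. In HEK293T, ENSG00000286388 (4 and 3) and BAIAP2-DT (2 and 2) led. EIF3G had PRNCR1 alone in every K562 replicate (2, 2 and 2), on peaks of 24 bases in its strongest region with 3, 8 and 7 reads, and WAC-AS1 (2 and 1) and HOXA11-AS (1 and 2) in HEK293T. LINC00205 was enriched for both DDX3 and EIF3G in every HEK293T replicate.

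In K562, 50.4% ± 2.52 of the enriched DDX3 peaks had their centre within 200 nt of an annotated transcript start of the lncRNA, and in HEK293T 40.3% ± 4.17. Over all lncRNA exonic peaks of DDX3 the shares were 31.6% and 27.8%. EIF3G had 28.6% ± 12.4 and 37.5% ± 0, beside 33.5% and 29.3% over all its peaks. The enriched DDX3 peaks were rich in G and C, with a median of 73.2% ± 1.26 in K562 and 70.8% ± 3.48 in HEK293T. At the other end, 29.8% ± 5.01 of the enriched ZC3H11A peaks in K562 and 33.6% ± 0.4 in HEK293T lay within 200 nt of a transcript end, and 23.4% ± 4.68 and 21.7% ± 1.76 of those of IGF2BP2. Over all lncRNA exonic peaks the shares near an end were 23.7% and 22.8% for ZC3H11A and 21.2% and 15.7% for IGF2BP2. These positions were chosen after their values were seen and were not tested.

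ZC3H11A had 79 enriched peaks of 732 tested in K562 (10.8%), beside 21% of all ZC3H11A peaks, and 143 of 927 in HEK293T (15.4%), beside 10.1%. LINC01304 (1, 1 and 1), with the 27-base region printed above at 6, 7 and 11 reads, was enriched in every K562 replicate beside 1 gene that is counted and not named, which held 16 of the 79 peaks (20.3%). In HEK293T, SLC9A3-AS1 (3 and 3) and ENSG00000288271 (5 and 1) led.

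Few regions were enriched in every replicate. When touching enriched peaks were joined, the regions found in all 3 K562 replicates numbered 16 of 153 for RBFOX2, 16 of 266 for PRPF8, 12 of 133 for LIN28B, 12 of 110 for SF3B4 and 9 of 137 for FAM120A. The other RBPs had 4 (DDX3 and IGF2BP2) or 1 (EIF3G, PUM2 and ZC3H11A). In both HEK293T replicates the counts reached 46 of 178 for RBFOX2, 43 of 181 for FAM120A and 29 of 304 for PRPF8. Lists of 3 and of 2 replicates cannot be set against each other by these shares. The same shares over all peaks, and the overlap of all genes between the lines, were not computed. These counts therefore do not set lncRNA exons apart.

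Singleplex RBFOX2 was read against an external background of RNA-seq, as it has no other barcode. Of its 6744 lncRNA exonic peaks, 1276 (18.9%) were enriched over that background, beside 10% of all its peaks. They made up 2.4% ± 0.128 of its enriched peaks (SD, n = 2), and by the same background the RBFOX2 libraries of the HEK293T 10plex had 4.12% ± 0.648. The difference was not tested. NEAT1 led (53 and 41 enriched peaks), then MALAT1 (55 and 32) and MIR17HG (23 and 21). MMP25-AS1 had 16 and 25, with 13.4% and 24.6% of the reads of the lncRNA exonic peaks, and 3002 and 2081 reads in its strongest region. Of 582 joined regions, 350 were enriched in both replicates.

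The choice of background decided which lncRNAs counted for RBFOX2. In the HEK293T 10plex, MALAT1 had 57 and 47 RBFOX2 peaks, all enriched over the external background and 2 and 0 over the CC. In K562 it had 53, 64 and 49, again all enriched over the external background, and 0, 1 and 1 over the CC. NEAT1 in HEK293T had 56 and 64 by the external background and 1 and 2 by the CC. MMP25-AS1 in the HEK293T 10plex had 8 and 17 over the CC and 20 and 23 over the external background. Over all RBFOX2 peaks that background was sparse. In the K562 libraries of RBFOX2, 97.1% to 97.9% of all peaks had at most 1 background read. The shares were 72.1% and 75.1% in the HEK293T 10plex and 86.1% and 78.3% in singleplex RBFOX2. The libraries of the other RBPs had 6.6% to 24% in the HEK293T 10plex and 88.6% to 98.7% in the K562 10plex. The background reads at the MALAT1 and NEAT1 peaks alone were not counted, and their part in these calls was not tested.

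Singleplex SLBP, the protein of the histone mRNA stem-loop, had 307 of its 372 lncRNA exonic peaks (82.5%) enriched over the external background, beside 55.3% of all its peaks. They were 9.02% ± 2.76 of its enriched peaks (SD, n = 2), at 11% and 7.06%. MALAT1 (23 and 16), NEAT1 (22 and 6) and GAS5 (15 and 6) led, and 45.3% of the enriched peaks lay on small RNA genes. The strongest region in both replicates lay on RNU12 in ENSG00000270022, with 871 and 223 reads. Replicate 2 had 1741 of 1743 peaks enriched, so its call separates few peaks. In the 2 replicates 97.6% and 97.2% of all peaks had at most 1 read of the external background.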

How the data were processed

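Peaks of antibody-barcode eCLIP were analysed in 54 libraries. Per the authors, UMIs were taken from the reads, adapters trimmed with cutadapt (2.8), reads of repetitive elements set aside, the rest aligned to GRCh38 with STAR (2.7.6), duplicates removed and peaks called per library with CLIPper and merged. The deposited lists give, for each merged peak, −log10 of P (capped at 400) and the log2 fold over an external RNA-seq background. For K562 replicate 3 the deposited lists give the same −log10 and log2 values over the complement control (CC). For the other 10plex libraries, other deposited lists give the chi-squared statistic and P in the peak name. Names of peaks hold the read number (3 or more) in K562 replicates 1 and 3 and singleplex RBFOX2 only. Elsewhere, so in K562 replicate 2, HEK293T 10plex and SLBP, reads were inferred from the deposited fold and P. Where names allowed a check, the inferred reads were equal for 96.1% to 99.5% of peaks in K562 10plex. Singleplex RBFOX2 gave 95.4% and 93.3%, and HEK293T 10plex has no such names. For 10plex libraries other than K562 replicate 3, the fold over the CC was recovered from reads and statistic, with a tolerance of 0.2%. In lists simulated from the 10 libraries of K562 replicate 3, 99.94% to 100% of the calls were recovered, with 0% false. The number of CC reads was recovered without error for 90.82% to 98.44% of the peaks there. Read numbers of the other RBPs given for 10plex libraries other than K562 replicate 3 are such recovered values. A whole number of CC reads gave the statistic within tolerance for 58.8% to 98.9% of peaks in HEK293T. In K562 replicates 1 and 2 this was 79.1% to 100%. The simulation thus does not cover the inferred reads of HEK293T or K562 replicate 2.

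Peaks were placed on GENCODE 44 (the authors used 35). The members, gene lists and tests were chosen with earlier results of these data known. Shares were compared by exact permutation of the RBP labels within a replicate, adjusted by Benjamini-Hochberg, and tested on simulated data. Named genes are, per RBP, up to 3 (K562, singleplex) or 2 (HEK293T) with the most enriched peaks and at least 1 in every replicate, the 10 with most reads, the fixed lists, and the strongest region in every replicate. Others named here (GP6-AS1, ENSG00000274272, ENSG00000287528, the genes set beside the adapter, the 13 genes of the heat map, KCNQ1OT1 for RBFOX2, TERC and MIRLET7BHG counts) were chosen after their values were seen or belong to the lists. The RBP of a 10plex library is given by its file alone.

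CC lists of K562 replicates 1 and 2 and of HEK293T lack peaks in repeats, and those of replicate 3 hold them. The deposited test of replicate 3 is exact at small numbers and that of the others a chi-squared. In the libraries of replicate 3, a chi-squared gave the deposited call for 84.04% to 99.99% of peaks. Of the lncRNA exonic peaks, 23.2% (K562) and 23.7% (HEK293T) lay in such repeats, as did 117 of 1603 and 0 of 1622 enriched ones. Peaks in lncRNAs derived from pseudogenes can hold reads of the coding copy. Depth is the number of reads in peaks, 13351 to 2189496 per 10plex library. Intervals cover counting error only. Alternatives changed the background, the limits, the annotation, the small RNA genes, the weights, the replicates and the replicate block. Python 3.11.15, numpy 2.4.6, pandas 2.3.3, scipy 1.17.1 and matplotlib 3.10.9 were used.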

Additional observations from a re-analysis of the deposited data

Results flagged for a closer look

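EIF3G differed in sign between the 2 cell lines. Its share of enriched peaks in lncRNA exons, minus the mean of the other 9 RBPs, was −0.305 percentage points in K562 (−0.468 to −0.042 over 3 replicates) and 0.684 in HEK293T (0.582 to 0.785 over 2 replicates). All replicates of a line went the same way, which drew attention to it, and the difference between the lines was not tested. The K562 difference itself was 4.84 over the external background (exact permutation p = 0.024) and 0.345 under stricter limits, both of the sign seen in HEK293T. In the K562 libraries of EIF3G, 96.6% to 97.2% of all peaks had at most 1 read of that external background. The K562 values rest on 5, 13 and 23 enriched lncRNA exonic peaks and the HEK293T values on 40 and 48.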

How the results depend on the processing

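The motif and splice site results kept their direction and side of the threshold (exact permutation test) under every alternative, except SF3B4 near 3′ splice sites without replicate 3. The excess over the other RBPs without each replicate in turn was 60.5 to 65.2 percentage points for GCATG, 46.2 to 48.2 for TGTANATA, 61.2 to 64.8 for PRPF8 and 21.3 to 29.2 for SF3B4. Of the shares of enriched peaks, 2 RBPs had p under 0.05 in K562, 1 under stricter limits (P below 1e-05, over 16-fold), in HEK293T, without MALAT1 and NEAT1, with touching peaks counted once and with basic transcripts, and 0 to 1 without a replicate. The paired design, with the replicate pool as a block, is the main one, and with no replicate block the counts of RBPs were 2 (enriched peaks) and 1 (all peaks), with p = 0.000246 for PUM2 among all peaks (permutation), and no call changed. Differences from the other 9 RBPs that turned, in percentage points, were for the external background 4.84 for EIF3G, −0.624 for IGF2BP2, −1.15 for RBFOX2 and −0.15 for ZC3H11A, for stricter limits 0.345 for EIF3G and −0.0501 for ZC3H11A, in HEK293T 0.354 for DDX3, 0.684 for EIF3G and −0.217 for IGF2BP2, and −0.0876 without replicate 2 for ZC3H11A (to 0.424 without replicate 1). Among all peaks, 1 RBP passed in K562 and 2 by reads, where RBFOX2 turned to 4.27, SF3B4 to 13.1 and ZC3H11A to −1.03, and without replicate 3 ZC3H11A turned to −0.123 (0.794 without replicate 2). Between the lines (K562 minus HEK293T), PRPF8 turned to 3.3 by reads, and by enriched peaks DDX3 to −1.45, EIF3G to −1.49, FAM120A to −0.111, LIN28B to −0.0973, SF3B4 to −0.323 and ZC3H11A to −2.80. The singleplex RBFOX2 share was 3.08% under stricter limits and 1.28% over all peaks, and 2.31% to 2.49% by replicate, and that of SLBP 13.5% under stricter limits and 7.06% to 11% by replicate. The single test for all replicates, the looser match to the adapter and the leading gene left out were chosen after seeing the data. The causes were not tested. The K562 libraries of PUM2 and EIF3G held 2 to 23 enriched lncRNA exonic peaks and ZC3H11A replicate 1 held 8, so their shares are coarse.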

Other observations

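EN2-DT and LINC01304 were found in HEK293T as well (log2 folds of 9.55 ± 1.64 and 8.17 ± 1.07, n = 2). ENSG00000287528 had the highest fold of the PRPF8 regions in HEK293T, 6.29 ± 3.07, on a peak of 25 bases with 60 and 6 reads. All 3 matched the first 10 adapter bases at 8 positions, as did longer regions such as WAC-AS1 (186 bases) and MCM3AP-AS1 (141 bases). Other short regions of HEK293T were mixed. Those of ENSG00000291042 (23 bases), ENSG00000287053 (23 bases) and ENSG00000270103 (10 bases) matched at 8. Those of LINC01962 (26 bases) and MIR17HG (24 bases) matched at 6, and the 11-base region of MIRLET7A1HG at 5. The part of the adapter in these peaks was not tested. Of the enriched lncRNA exonic peaks, 21 of 1603 in K562 (1.31%) and 7 of 1622 in HEK293T (0.432%) lay within 30 nt of a site with at most 1 mismatch to its first 10 bases. Over all lncRNA exonic peaks, enriched or not, the shares were 0.415% and 0.579%.

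lncRNA genes named only by an identifier, ENSG00000270022 with its U12 snRNA among them, held 26.1% of the enriched lncRNA exonic peaks in K562 (418 of 1603) and 30.1% in HEK293T (489 of 1622). They held 25.5% and 26.4% of all lncRNA exonic peaks, so the enriched shares were near those. Exons that lie within the body of a coding gene held 9.86% and 8.08% of the enriched peaks, beside 9.09% and 9.94% of all lncRNA exonic peaks.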
